A study of Homo sapiens with 12 samples.

Results

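ASPN, PRG4, GNRH1, TRIM54 and SHOC1 are 5 protein-coding genes, of 67049 gene IDs in the count tables, that were chosen by their near-zero counts in cytoplasmic RNA beside ample counts in nuclear RNA. All 5 passed the filter on low counts that left 20394 genes tested. The values that chose them are their counts in the nucleus and in the cytoplasm, so the difference between fractions is described for these genes and not tested. No threshold on the counts was part of the choice. The tests below concern what the choice did not use: K700E against WT within the nucleus, and the genes that lie around or beside each of the 5.

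The RNA came from HEK293T cells, a transformed line derived from human embryonic kidney, harvested 48 h after transient transfection with a pIRES2 plasmid that carried SF3B1. The 4 groups were nuclei of cells given SF3B1 K700E, nuclei of cells given SF3B1 WT, cytoplasm of cells given K700E and cytoplasm of cells given WT, with 3 libraries each and 12 in all. SF3B1 is a splicing factor of the U2 snRNP, which recognises the branch point of introns, and the K700E substitution recurs in blood cancers. All groups also carry the cells' own SF3B1 genes, and cells without a plasmid were not analysed here.

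The 5 genes are best known from tissues other than kidney. ASPN (asporin) and PRG4 (proteoglycan 4, or lubricin) encode secreted proteins of the extracellular matrix: asporin is a small leucine-rich repeat proteoglycan that binds collagen, and lubricin coats the surfaces of joints. GNRH1 encodes the precursor of gonadotropin-releasing hormone, which hypothalamic neurons release to drive the pituitary. TRIM54 (also called MuRF3) is a ubiquitin ligase of striated muscle that binds microtubules and the sarcomere, and SHOC1 works in meiosis, where it is needed for crossovers. An mRNA is transcribed, spliced and polyadenylated in the nucleus before export, and a count per gene does not part unspliced from spliced RNA.

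Total counts ran from 9086743 to 11200562 in nuclear libraries and from 13422598 to 18116929 in cytoplasmic ones, so the cytoplasm was the more deeply sequenced fraction. MALAT1, a long non-coding RNA that stays in the nucleus, averaged 4873 ± 3271 CPM in K700E nuclei and 3723 ± 1402 CPM in WT nuclei, against 63.4 ± 23.1 CPM in K700E cytoplasm and 52.2 ± 27.8 CPM in WT cytoplasm (CPM, the count scaled to library size with TMM factors, as throughout; SD, n = 3 each). SF3B1 stood at 1600 ± 500 CPM in K700E nuclei and 1577 ± 784 CPM in WT nuclei, and gene counts do not part plasmid from endogenous RNA. All 8 HEK293T markers looked up were detected. Summed fibroblast markers reached 32.3 to 120 CPM in nuclei and 16.5 to 31.1 CPM in cytoplasm, mostly COL1A1, with 3 of 7 tested and none at 0 in all libraries. Summed blood cell markers reached 6.65 to 13.6 CPM in nuclei and 1.6 to 5.23 CPM in cytoplasm, with 2 of 7 tested and 1 at 0 throughout. The part of such markers in the results below was not tested. Nothing in the labels states that replicate libraries came from separate cultures, so p-values here measure the spread between libraries, which may be technical. In bulk RNA, many cells with little of an RNA and few cells with much of it cannot be told apart.

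The promoters of 4 of the 5 genes are shown first, since the question for each gene is whether its counts belong to a transcript from its own start. They cover 250 bases before to 50 bases after a RefSeq start (GRCh38.p14), and capitals mark CG dinucleotides, which are dense at the starts of most broadly expressed genes. The stretches lie at chr9:92482457-92482756 (minus strand) for ASPN, chr1:186296023-186296322 (plus strand) for PRG4, chr2:27282179-27282478 (plus strand) for TRIM54 and chr9:111794888-111795187 (minus strand) for the first of the SHOC1 starts.
ASPN: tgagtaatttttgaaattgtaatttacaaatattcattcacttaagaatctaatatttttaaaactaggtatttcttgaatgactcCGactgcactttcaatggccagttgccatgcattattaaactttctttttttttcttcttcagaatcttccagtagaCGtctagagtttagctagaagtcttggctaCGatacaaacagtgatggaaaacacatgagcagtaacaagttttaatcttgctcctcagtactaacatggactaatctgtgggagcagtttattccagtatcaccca
PRG4: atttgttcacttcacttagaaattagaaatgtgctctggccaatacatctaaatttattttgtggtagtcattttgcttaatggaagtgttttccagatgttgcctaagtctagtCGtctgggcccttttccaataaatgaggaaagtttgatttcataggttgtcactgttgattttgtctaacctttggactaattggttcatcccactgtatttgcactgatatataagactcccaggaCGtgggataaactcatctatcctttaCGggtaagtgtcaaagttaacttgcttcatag
TRIM54: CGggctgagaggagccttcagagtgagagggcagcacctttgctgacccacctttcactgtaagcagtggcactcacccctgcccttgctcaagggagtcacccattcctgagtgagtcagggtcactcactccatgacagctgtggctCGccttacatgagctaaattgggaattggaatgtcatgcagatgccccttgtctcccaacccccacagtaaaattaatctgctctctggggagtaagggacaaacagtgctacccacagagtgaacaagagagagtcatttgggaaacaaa
SHOC1: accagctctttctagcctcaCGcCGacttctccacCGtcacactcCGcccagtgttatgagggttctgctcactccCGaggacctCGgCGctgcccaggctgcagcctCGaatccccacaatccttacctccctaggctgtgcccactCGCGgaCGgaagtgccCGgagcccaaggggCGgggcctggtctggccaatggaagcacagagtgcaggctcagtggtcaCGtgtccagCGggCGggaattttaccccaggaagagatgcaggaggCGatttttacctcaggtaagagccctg
ASPN and PRG4 held 3 CG each and TRIM54 held 2, counted on 1 strand since CG reads the same on both. Over all 35116 RefSeq promoters of this length the median was 14 CG, the middle range was 4 to 28, 96% held at least 1 and 24.5% held 3 or fewer. SHOC1 held 17 at its first start and 2 at another start (chr9:111783444-111783743, minus strand). That second stretch was the only one of the members' promoters looked at with the letters TATAAA, searched on both strands, which 11.5% of all promoters hold. Only these exact letters were searched, so close variants, such as tatataag in the PRG4 stretch, were not counted. Among neighbours described below the promoters held 25 CG at DNAJC25, 23 at TPR, 19 each at UCN, DNAJC5G, MPV17 and ODR4, and 14, 34 and 2 at the 3 starts of CENPP. OGN and ECM2 held 0.

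Counts of the secreted matrix genes were high in nuclei and at or near 0 in cytoplasm. ASPN (ENSG00000106819.13) had 40, 186 and 64 counts in K700E nuclei and 31, 386 and 266 in WT nuclei, against 3, 0 and 0 in K700E cytoplasm and 0 in all 3 WT cytoplasmic libraries. The fractions did not overlap, and the nuclear libraries spread widely within each construct. Pooled over libraries and corrected for effective library size, the ratio of nucleus over cytoplasm was 105 with K700E (exact 95% interval 35.6 to 512, counting error only). With WT it was at least 250, taking 3 counts in the whole group as the floor. PRG4 (ENSG00000116690.13) had 278, 314 and 161 counts in K700E nuclei and 211, 119 and 126 in WT nuclei, against 2, 0 and 0 in K700E cytoplasm and 0, 4 and 0 in WT cytoplasm. Its nuclear counts were more even than those of ASPN, and again no cytoplasmic library came near a nuclear one. The pooled ratios were 409 with K700E (113 to 3385) and 125 with WT (48.5 to 461), and these intervals overlap. With K700E all cytoplasmic counts of ASPN and PRG4 came from replicate 1, and with WT those of PRG4 came from replicate 2. Without that library the group stands at 0, and the fitted log2 values then depend on the default prior count of edgeR. They were 9.68 for ASPN with K700E, 11.03 for PRG4 with K700E and 10.30 for PRG4 with WT.

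GNRH1 (ENSG00000147437.10), the hormone precursor, was the most abundant and most even of the 5. It had 432, 496 and 394 counts in K700E nuclei and 447, 243 and 419 in WT nuclei, against 6, 3 and 2 in K700E cytoplasm and 5, 7 and 2 in WT cytoplasm. Every library held some counts, and the lowest nuclear library still lay far above the highest cytoplasmic one. The pooled ratio of nucleus over cytoplasm was 131 with K700E (72.8 to 262) and 86.9 with WT (51.6 to 159).

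TRIM54 (ENSG00000138100.14), the muscle ligase, had 35, 102 and 86 counts in K700E nuclei and 25, 429 and 75 in WT nuclei, against 4, 5 and 1 in K700E cytoplasm and 0, 1 and 0 in WT cytoplasm. One WT nuclear library, replicate 2, stood far above the rest and held 81.1% of the WT nuclear counts. The pooled ratios were 24.2 with K700E (12.9 to 51.2) and 580 with WT (104 to 22966), the second of which rests on 1 cytoplasmic count. SHOC1 (ENSG00000165181.17), the meiotic gene, had 98, 251 and 240 counts in K700E nuclei and 92, 150 and 412 in WT nuclei. It had 0 counts in all 6 cytoplasmic libraries. Its ratio was at least 213 with K700E and at least 239 with WT, by the same floor.

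**Figure D1:**
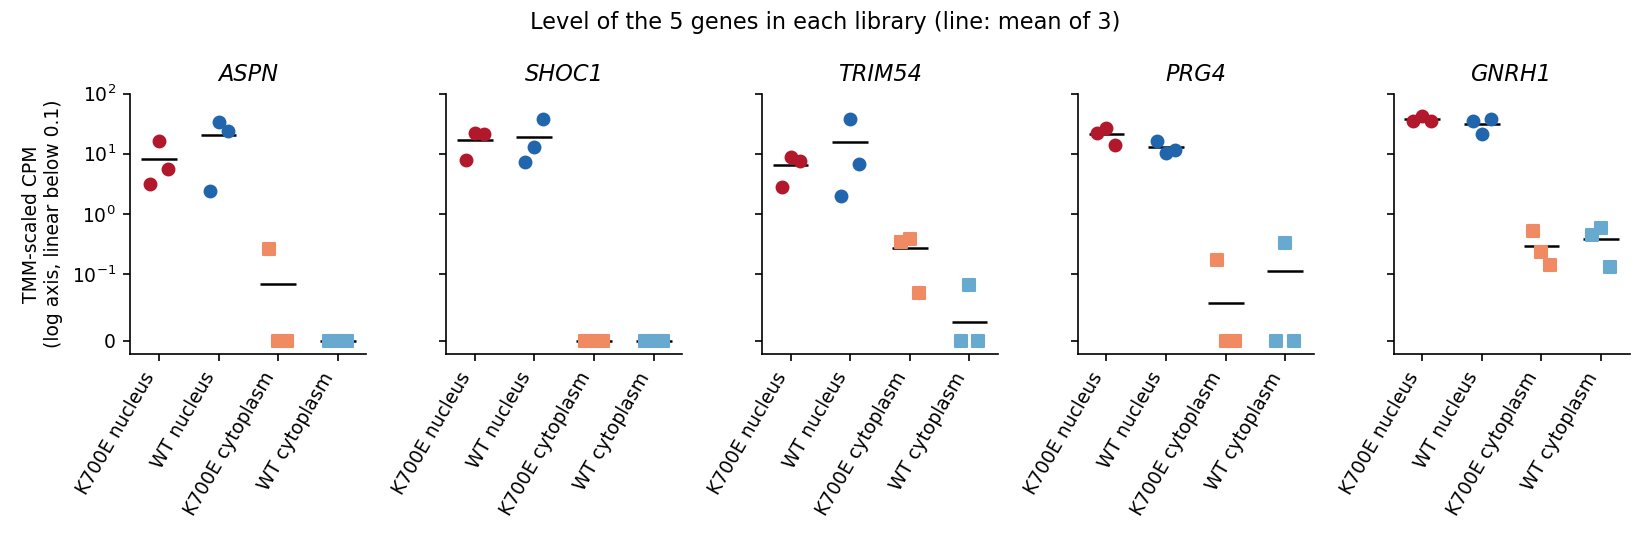
Level of each of the 5 genes in every library, as TMM-scaled CPM on a log axis that turns linear below 0.1, with nuclear libraries as circles, cytoplasmic libraries as squares and the mean of 3 as a line. For all 5 genes the nuclear libraries lie above every cytoplasmic one; TRIM54 and ASPN spread most among nuclei, and SHOC1 is at 0 in all 6 cytoplasmic libraries.

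Set side by side, the cytoplasm held 0% of the counts of SHOC1, 0.307% of ASPN, 0.494% of PRG4, 1.02% of GNRH1 and 1.44% of TRIM54. Among 10167 coding genes with at least 500 nuclear counts, a minimum chosen after the values were seen, these shares took places 1, 2, 3, 7 and 10 from the lowest. The genes between them in that order were SLC5A4, RTEL1-TNFRSF6B and ENSG00000261732 ahead of GNRH1, and CRYGS and ABCA10 ahead of TRIM54. The 5 were chosen for near-zero cytoplasmic counts, so their low places follow from the choice. For comparison, MALAT1 had 1.44% of its counts in the cytoplasm. Levels per kb of exon in K700E nuclei ran in the order GNRH1 (21.1 ± 2.76 CPM per kb), PRG4 (4.19 ± 1.31), ASPN (3.35 ± 2.77), SHOC1 (2.68 ± 1.24) and TRIM54 (2.3 ± 1.14). In WT nuclei they ran GNRH1 (17.9 ± 5.07 CPM per kb), ASPN (8.16 ± 6.52), TRIM54 (5.6 ± 7), SHOC1 (3.07 ± 2.56) and PRG4 (2.54 ± 0.646). GNRH1 lay clear of the next gene in K700E nuclei, and all other neighbours in either order overlapped in their libraries.

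K700E against WT within the nucleus was the contrast that the choice of genes did not use, and 0 of the 5 were called. The background was 0 of 20394 genes tested (0%) by edgeR's quasi-likelihood test at an adjusted p under 0.05, where 1389 genes had an unadjusted p below 0.05 and the smallest adjusted p was 0.222. DESeq2 called 1 gene. ASPN averaged 8.28 ± 6.85 CPM in K700E nuclei and 20.2 ± 16.1 CPM in WT nuclei (SD, n = 3 each), with a log2 fold change of -1.28 ± 0.74 (SE; 95% interval -2.87 to 0.30; edgeR adjusted p = 0.659). TRIM54 averaged 6.37 ± 3.16 CPM in K700E nuclei and 15.5 ± 19.3 CPM in WT nuclei, with a log2 fold change of -1.28 ± 0.73 (-2.82 to 0.26; edgeR adjusted p = 0.659). PRG4 averaged 21.1 ± 6.61 CPM in K700E nuclei and 12.8 ± 3.26 CPM in WT nuclei. Its log2 fold change was 0.72 ± 0.45 (-0.24 to 1.68; edgeR adjusted p = 0.668). GNRH1 averaged 37.2 ± 4.86 CPM in K700E nuclei and 31.5 ± 8.94 CPM in WT nuclei, with a value of 0.24 ± 0.31 (-0.42 to 0.90; edgeR adjusted p = 0.824). SHOC1 averaged 16.8 ± 7.79 CPM in K700E nuclei and 19.3 ± 16 CPM in WT nuclei, with -0.20 ± 0.54 (-1.36 to 0.97; edgeR adjusted p = 0.931). These intervals leave room for changes of either sign in all 5, so a difference was not detectable and is not shown to be absent.

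Replicate 2 of the WT nuclei set the values of TRIM54 and, in part, of ASPN. Its 429 TRIM54 counts and 386 ASPN counts were the highest of any library for both genes. The ratio of mean CPM in K700E over WT nuclei was 0.412 for TRIM54 with all libraries and 1.45 without that library, which turns its direction. For ASPN the ratio was 0.411 with all libraries and 0.622 without it, where the library holds 56.5% of the WT nuclear counts. SHOC1 turned as well, to a log2 fold change of 0.73 without replicate 3 of the WT nuclei and of 0.15 without replicate 1 of the K700E nuclei.

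**Figure D2:**
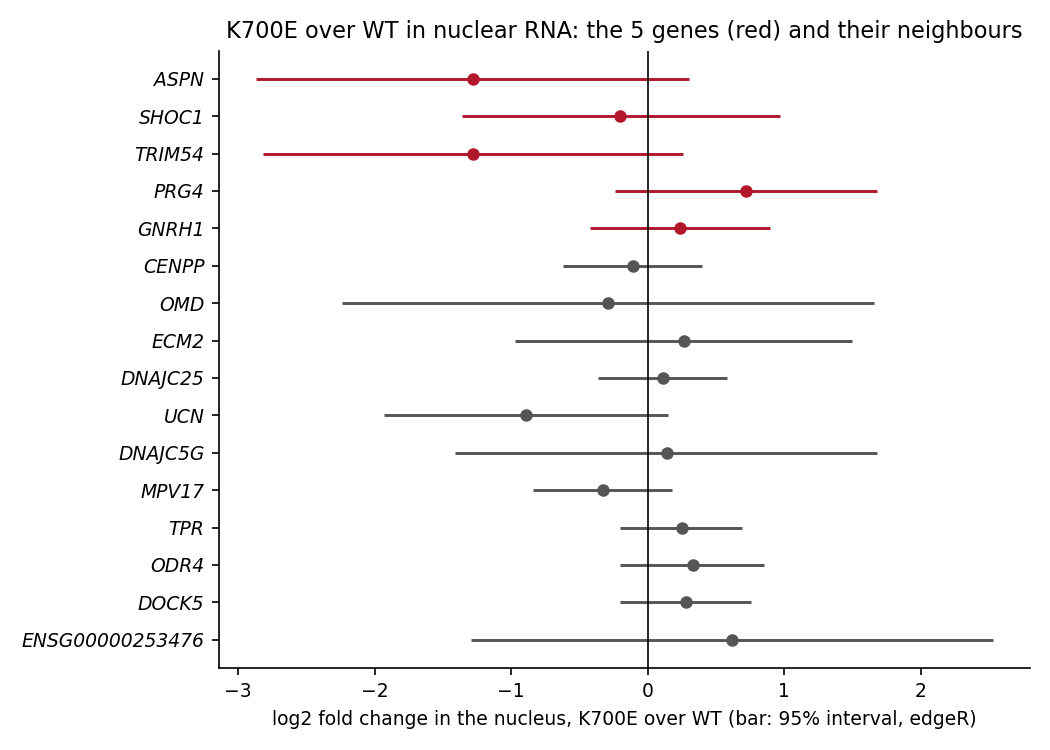
Log2 fold change of nuclear RNA, K700E over WT, for the 5 genes (red) and the 11 genes around or beside them (grey), as points with 95% intervals from edgeR. Every interval crosses 0, and the intervals of ASPN and TRIM54, which run from -2.87 to 0.30 and from -2.82 to 0.26, are wider than that of GNRH1.

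The surroundings of the 5 genes were read from GENCODE 29 on GRCh38. Overlapping genes of either strand were listed. On each side the nearest gene within 100 kb with a mean of at least 1 CPM over nuclear libraries was added, which gave 11 genes. In this cut CPM was scaled by total counts without TMM factors. OMD stood at 1.16 by that scale and at 0.974 with TMM factors. Overlaps by RefSeq were the same. Whether reads were counted by strand is not given in the sources used here, so counts in an overlap cannot be assigned to a strand. Of the 11 genes, 9 were called higher in the nucleus with K700E and 9 with WT, and 0 lower with either (edgeR). Of these, OMD, ECM2, DNAJC5G and ENSG00000253476 had 15 or fewer cytoplasmic counts in all and passed the filter on low counts through the nucleus, so their calls follow from the filter and support nothing. Over all genes tested the share called higher was 37.9% with K700E and 40.0% with WT, and the share called lower 28.1% with K700E and 27.1% with WT. The genes not called were CENPP and MPV17 in both constructs. None of the 11 was called in K700E against WT nuclei.

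**Figure D3:**
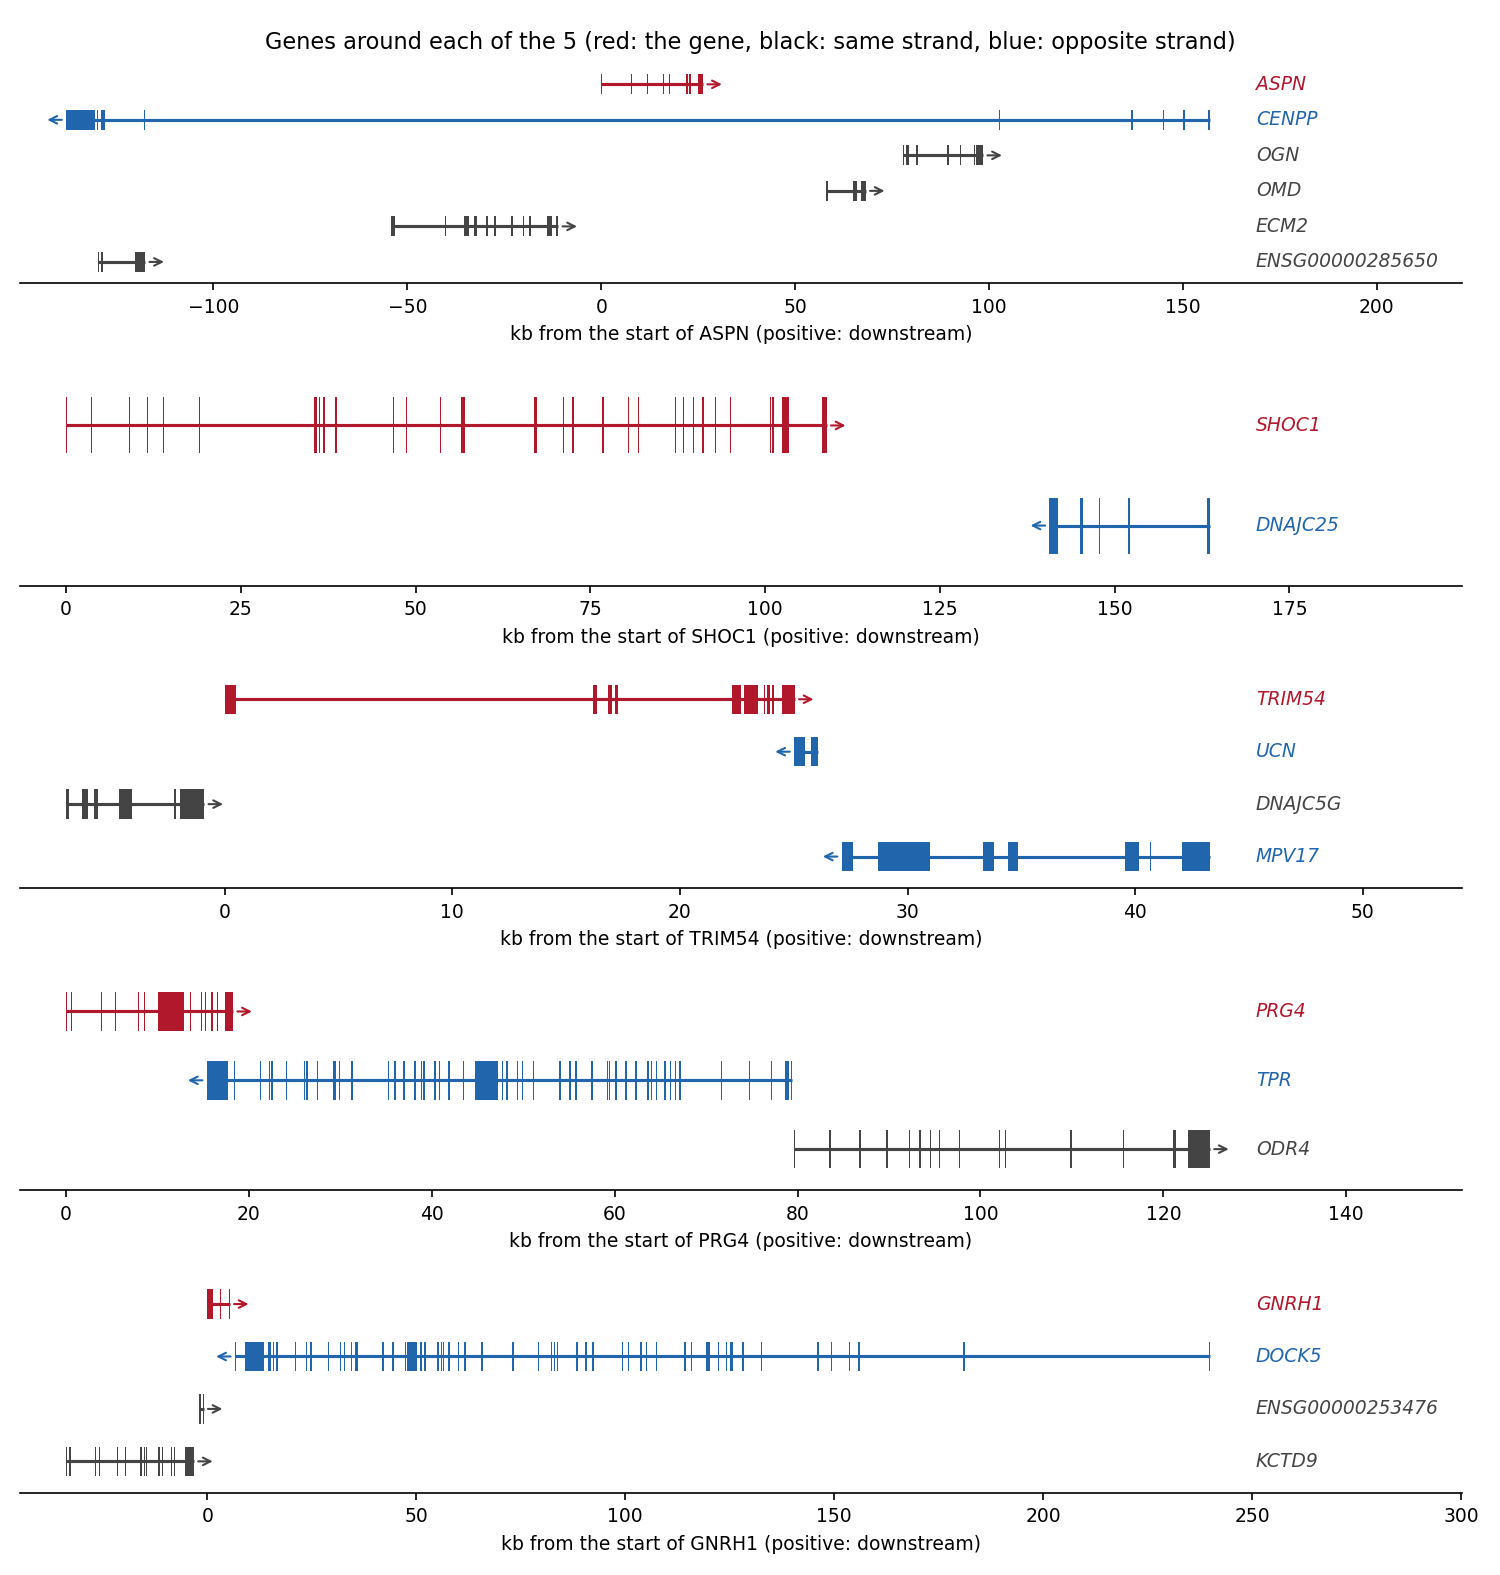
Genes around each of the 5, drawn to scale in kb from the start of that gene along its own strand, with boxes for exons, red for the gene itself, black for genes on the same strand and blue for genes on the opposite strand. ASPN lies wholly inside CENPP, TRIM54 and PRG4 meet UCN and TPR end to end, and SHOC1 and GNRH1 overlap no annotated gene; KCTD9 was added after its values were seen.

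ASPN was the only one of the 5 inside another gene. It spans chr9:92456205-92482506 on the minus strand (26302 bp, 2470 bp of exon) within CENPP, a centromere protein gene on the plus strand at chr9:92325484-92620533, and shares no exon base with it. CENPP had 356, 183 and 322 counts in K700E nuclei and 348, 261 and 307 in WT nuclei, against 311, 346 and 331 in K700E cytoplasm and 274, 298 and 356 in WT cytoplasm. Those groups overlap, and the host held 51.9% of its counts in the cytoplasm. Its log2 fold change of nucleus over cytoplasm was -0.09 ± 0.24 with K700E (edgeR adjusted p = 0.76) and 0.11 ± 0.24 with WT (edgeR adjusted p = 0.703). Scaling by library size alone, which raised the median of all genes by 0.41 with K700E and 0.52 with WT, turned the K700E value to 0.35.

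Other genes inside the same host on the minus strand were also low in the cytoplasm. OGN (osteoglycin) and OMD (osteomodulin), both small leucine-rich repeat proteoglycans of bone and connective tissue, and ECM2, a related matrix gene, lie there. ECM2 had 87, 86 and 128 counts in K700E nuclei and 51, 32 and 159 in WT nuclei, against 5, 0 and 1 in K700E cytoplasm and 2, 4 and 2 in WT cytoplasm. OMD had 31 counts in K700E nuclei and 38 in WT nuclei, and 0 in every cytoplasmic library. The shares of counts in the cytoplasm were 2.51% for ECM2, 3.46% for OGN and 3.37% for ENSG00000285650, an antisense RNA inside the host. OGN, OMD, ECM2 and the antisense RNA passed the filter on low counts only through their nuclear libraries, with 0 to 16 counts over the 6 cytoplasmic ones, so their calls of higher in the nucleus follow from the filter and support nothing. The other 3 annotated genes inside the host had 4 to 13 nuclear counts and 0 cytoplasmic ones.

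Per kb of exon, ASPN averaged 5.76 CPM over the 6 nuclear libraries (0.983 to 13.7). The host averaged 2.56 CPM per kb and the others inside it 1.9 (OGN), 1.59 (ECM2), 1.12 (ENSG00000285650) and 0.398 (OMD). On these means ASPN was 2.25 times as dense as CENPP and 14.5 times as dense as OMD. Over single libraries the range of ASPN took in that of CENPP (1.61 to 2.9). The density over CENPP exons does not measure CENPP RNA across ASPN, where no exon base is shared. The part of CENPP reads in the ASPN counts was not tested. Across the 6 nuclear libraries the levels of ASPN and CENPP on the log2 scale gave Pearson r = -0.45 (exact permutation p = 0.385, adjusted 0.577 over 21 pairs) and Spearman rho = -0.43 (exact permutation p = 0.419, adjusted 0.678). Centred within constructs r was -0.58, and without WT replicates 1 and 2, the libraries farthest from the median, it was -0.42. ASPN varied 13.9-fold between its highest and lowest nuclear library, while CENPP varied 1.8-fold. With OMD, ASPN gave r = -0.45 (exact permutation p = 0.358, adjusted 0.577; rho = -0.49, exact permutation p = 0.356, adjusted 0.678). With ECM2 it gave r = 0.02 (exact permutation p = 0.972, adjusted 0.972; rho = 0.09, exact permutation p = 0.919, adjusted 0.919).

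PRG4 spans chr1:186296279-186314562 on the plus strand. Its last 2911 bp overlap the end of TPR, which encodes a protein of the nuclear pore basket and runs towards it on the minus strand. The overlap takes in 670 of the 5044 exon bases of PRG4 (13.3%), and the small RNA gene RNU6-1240P inside it had 0 counts in all libraries. TPR averaged 869 ± 128 CPM in K700E nuclei and 731 ± 99.1 CPM in WT nuclei, against 469 ± 98 CPM in K700E cytoplasm and 449 ± 35 CPM in WT cytoplasm. Its log2 fold change of nucleus over cytoplasm was 0.89 ± 0.21 with K700E (edgeR adjusted p = 0.0017) and 0.70 ± 0.21 with WT (edgeR adjusted p = 0.008). PRG4 stood at 3.36 CPM per kb in nuclei, 5.19% of the 64.8 CPM per kb of TPR. In the cytoplasm TPR had 35175 counts and 37.2 CPM per kb, and PRG4 had 6 counts and 0.0166 CPM per kb. To which gene reads in the shared bases were counted, if to either, is not known. The part of TPR reads in the PRG4 counts was not tested.

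The nuclear levels of PRG4 and TPR gave r = 0.27 over 6 libraries (exact permutation p = 0.614, adjusted 0.726; rho = 0.26, exact permutation p = 0.658, adjusted 0.813). Within constructs r was -0.26, and without K700E replicates 1 and 2 it was 0.66. ODR4, which lies 61.3 kb beyond PRG4 on the same strand and whose homologue in the worm Caenorhabditis elegans helps odorant receptors reach the cilium, had 35.3% of its counts in the cytoplasm. It gave r = 0.55 with PRG4 (exact permutation p = 0.256, adjusted 0.56; rho = 0.43, exact permutation p = 0.419, adjusted 0.678), 0.40 within constructs and 0.22 without the same libraries.

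GNRH1 spans 5395 bp on the minus strand of chromosome 8 (chr8:25419260-25424654) and overlaps no annotated gene. DOCK5, a guanine nucleotide exchange factor for Rac, ends 1.2 kb from the end of GNRH1 on the opposite strand. It had 759, 745 and 733 counts in K700E nuclei and 714, 450 and 661 in WT nuclei, against 184, 278 and 211 in K700E cytoplasm and 227, 245 and 232 in WT cytoplasm. DOCK5 was thus higher in the nucleus as well, by a log2 fold change of 1.85 ± 0.24 with K700E (edgeR adjusted p = 5.6e-06) and 1.48 ± 0.24 with WT (edgeR adjusted p = 4.71e-05). Yet 25.3% of its counts were cytoplasmic, against 1.02% of those of GNRH1. On the other side lies ENSG00000253476, a lincRNA on the same strand 0.9 kb away, with 2.99% of its counts in the cytoplasm.

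GNRH1 was the densest of the 5, at 19.5 CPM per kb in nuclei (12.1 to 24.3). That was 5.42 times the density of DOCK5 (3.6 CPM per kb), 5.77 times that of the lincRNA (3.38) and 1.74 times that of KCTD9 (11.2). KCTD9, looked up after the values were seen, ends 3.2 kb upstream of GNRH1 on the same strand and so runs towards it. KCTD9 had 63.4% of its counts in the cytoplasm. Its correlation with GNRH1 was not computed, and the part of its reads in the GNRH1 counts was not tested. With DOCK5, GNRH1 gave r = 0.94 (exact permutation p = 0.0431, adjusted 0.226) and rho = 0.49 (exact permutation p = 0.356, adjusted 0.678). The relation rested on 2 libraries: without replicate 2 of K700E and of WT, r was -0.15. With the lincRNA r was 0.77 (exact permutation p = 0.144, adjusted 0.433; rho = 0.14, exact permutation p = 0.803, adjusted 0.843) and -0.90 without the same libraries.

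SHOC1 had the emptiest surroundings. It spans chr9:111686173-111795008 on the minus strand, 108836 bp with 6276 bp of exon, overlaps no annotated gene and has no expressed neighbour by the rule upstream of it. UGCG, the nearest expressed gene upstream, begins 101.8 kb away. Downstream, DNAJC25, a J-domain membrane protein gene on the plus strand, ends 31.8 kb from it. DNAJC25 averaged 43.1 CPM per kb in nuclei, against which the 2.88 CPM per kb of SHOC1 were 6.68%, and had 25.9% of its counts in the cytoplasm. Its log2 fold change of nucleus over cytoplasm was 1.72 ± 0.23 with K700E (edgeR adjusted p = 8.46e-06) and 1.56 ± 0.23 with WT (edgeR adjusted p = 2.21e-05). Across nuclear libraries SHOC1 and DNAJC25 gave r = 0.53 (exact permutation p = 0.267, adjusted 0.56; rho = 0.43, exact permutation p = 0.419, adjusted 0.678), 0.54 within constructs and 0.38 without WT replicates 1 and 3.

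TRIM54 has close neighbours on both sides, at chr2:27282392-27307439 on the plus strand. DNAJC5G, a J-domain protein gene of the cysteine string family, ends 0.9 kb upstream on the same strand. UCN, which encodes the stress peptide urocortin, runs towards TRIM54 on the minus strand and shares its last 40 bp (1.4% of TRIM54 exon bases). MPV17, a gene of the inner mitochondrial membrane, lies 2.1 kb away on the minus strand. The promoters of the nearest of these are shown for contrast with that of TRIM54, at chr2:27308396-27308695 (minus strand) for UCN and chr2:27275183-27275482 (plus strand) for DNAJC5G, with CG again in capitals.
UCN: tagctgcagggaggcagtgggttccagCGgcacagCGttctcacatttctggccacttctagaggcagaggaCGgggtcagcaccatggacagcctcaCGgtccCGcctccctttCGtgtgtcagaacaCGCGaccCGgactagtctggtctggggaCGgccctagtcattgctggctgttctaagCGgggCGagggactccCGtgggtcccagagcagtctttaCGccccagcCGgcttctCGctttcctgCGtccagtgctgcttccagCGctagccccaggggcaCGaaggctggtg
DNAJC5G: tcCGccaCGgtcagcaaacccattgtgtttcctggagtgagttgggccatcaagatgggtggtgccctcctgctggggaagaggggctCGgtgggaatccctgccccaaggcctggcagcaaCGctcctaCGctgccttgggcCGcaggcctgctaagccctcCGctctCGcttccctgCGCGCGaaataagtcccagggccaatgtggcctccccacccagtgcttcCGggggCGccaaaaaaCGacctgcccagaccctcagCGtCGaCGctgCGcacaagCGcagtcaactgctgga
Both held 19 CG, against 2 in the promoter of TRIM54, and neither held TATAAA on either strand.

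The counts of UCN and DNAJC5G were set beside those of TRIM54 library by library. UCN had 109, 115 and 109 counts in K700E nuclei and 81, 382 and 136 in WT nuclei, against 25, 15 and 10 in K700E cytoplasm and 4, 11 and 15 in WT cytoplasm. DNAJC5G had 16, 45 and 51 counts in K700E nuclei and 10, 65 and 25 in WT nuclei, against 1, 1 and 8 in K700E cytoplasm and 0, 2 and 3 in WT cytoplasm. UCN was flat over the K700E nuclei, where TRIM54 was not. In all 3 genes replicate 2 of the WT nuclei was the highest library and replicate 1 of the WT nuclei the lowest nuclear one. MPV17 did not share that order, with 635, 378 and 660 counts in K700E nuclei and 887, 673 and 534 in WT nuclei, against 591, 538 and 815 in K700E cytoplasm and 570, 589 and 959 in WT cytoplasm.

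TRIM54 with UCN gave r = 0.94 (exact permutation p = 0.00694, adjusted 0.0729) and rho = 0.83 (exact permutation p = 0.0583, adjusted 0.408). Without WT replicates 1 and 2 r was 0.51, so the relation leaned on those libraries. TRIM54 with DNAJC5G gave r = 0.90 (exact permutation p = 0.00556, adjusted 0.0729) and rho = 0.94 (exact permutation p = 0.0167, adjusted 0.35), and r was still 0.91 without the same libraries. Centred within constructs the values of r were 0.95 with UCN and 0.97 with DNAJC5G. With MPV17 r was -0.17 (exact permutation p = 0.761, adjusted 0.799; rho = -0.26, exact permutation p = 0.658, adjusted 0.813). None of the 21 pairs passed an adjusted p of 0.05 on the values as they stood. With values centred within constructs 3 pairs came under 0.05, TRIM54 with UCN, TRIM54 with DNAJC5G and GNRH1 with DOCK5 (permutation, adjusted p = 0.0389 each). The centred values were permuted over all 6 libraries and not within constructs, so these p-values are not exact. No relation is read from them. By r over the nuclear libraries UCN took place 318 and DNAJC5G place 661 among the 20393 other genes tested. Places by r over 6 libraries do not bear on the source of the TRIM54 counts, which was not tested.

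**Figure D4:**
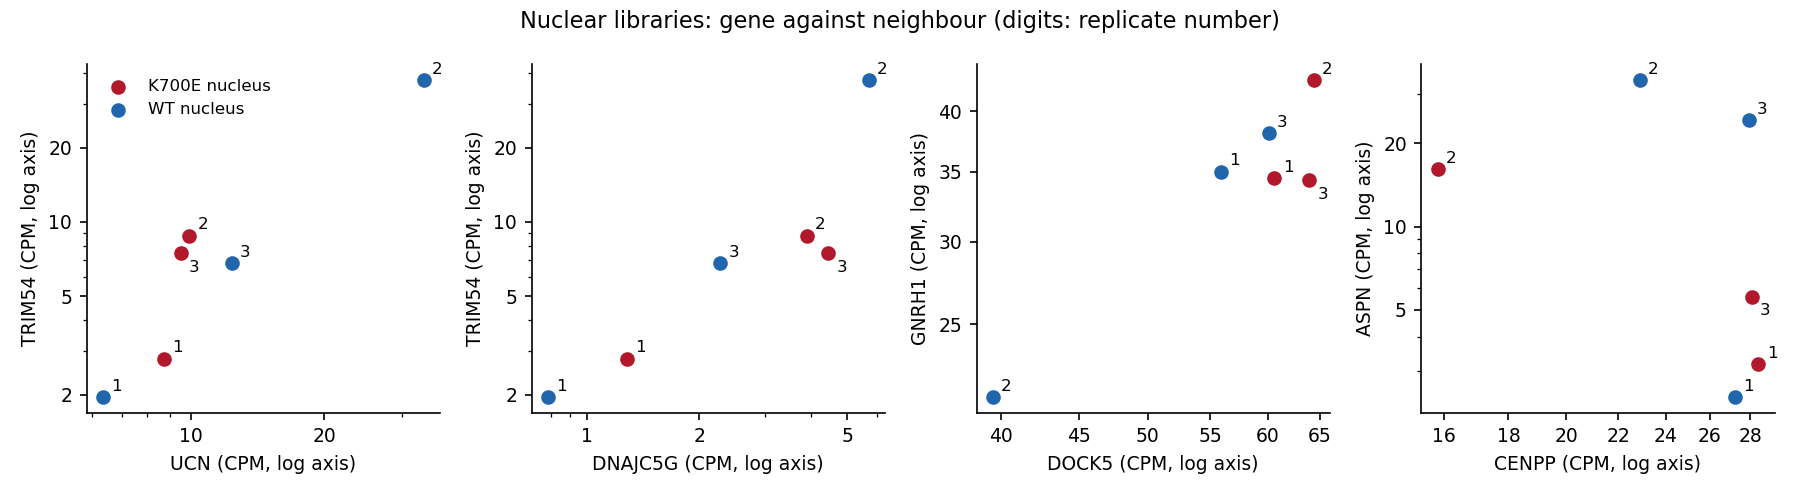
Nuclear levels of TRIM54 against UCN and DNAJC5G, of GNRH1 against DOCK5 and of ASPN against its host CENPP, as TMM-scaled CPM on log axes, with 1 point per library and the replicate number beside it. TRIM54 and both its neighbours are highest in WT replicate 2 (r of 0.94 and 0.90, neither past an adjusted p of 0.05), GNRH1 with DOCK5 leans on 2 libraries, and ASPN with CENPP has an r of -0.45.

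UCN was called higher in the nucleus with a log2 fold change of 2.82 ± 0.56 with K700E (edgeR adjusted p = 0.000365) and 4.49 ± 0.60 with WT (edgeR adjusted p = 8.49e-06). The shares of counts in the cytoplasm were 7.91% for UCN and 6.61% for DNAJC5G, above the 1.44% of TRIM54, while MPV17 had 51.9% there. Per kb of exon TRIM54 averaged 3.95 CPM in nuclei (0.708 to 13.6), which was 23.5% of UCN (16.8) and 3.04 times DNAJC5G (1.3). The part of UCN and DNAJC5G reads in the TRIM54 counts was not tested, since gene totals hold no positions.

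**Figure D5:**
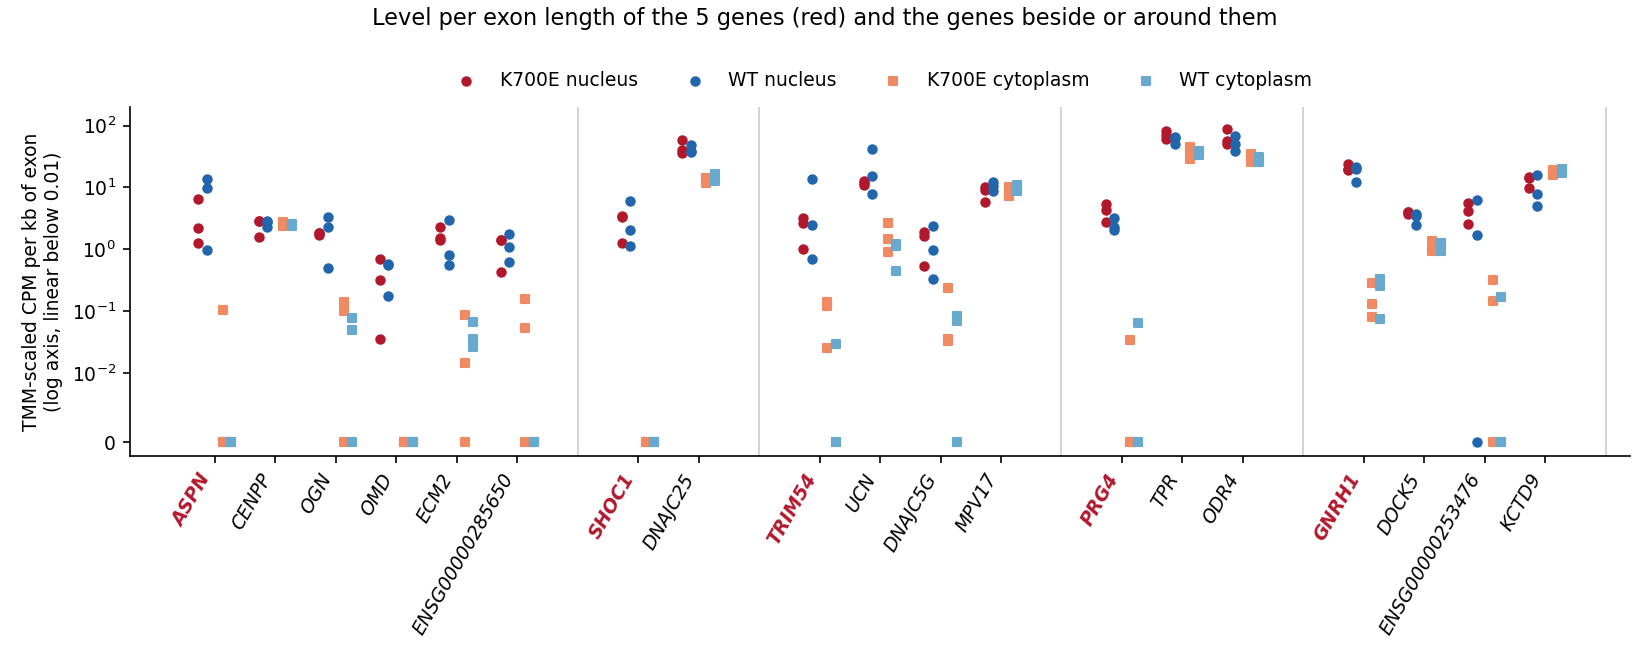
TMM-scaled CPM per kb of joined exons for the 5 genes (red names) and the genes around or beside them, 1 point per library, nuclear libraries as circles and cytoplasmic ones as squares, on a log axis that turns linear below 0.01. CENPP and MPV17 have like levels in both fractions, while ASPN, OGN, OMD and ECM2 inside CENPP, and UCN and DNAJC5G beside TRIM54, are lower in the cytoplasm.

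Among themselves the 5 genes did not move as 1 group across nuclei. Their spread over the 6 nuclear libraries, as SD over mean, was 122% for TRIM54, 90.3% for ASPN, 62.9% for SHOC1, 38.4% for PRG4 and 20.9% for GNRH1. The closest pair was ASPN with TRIM54, on different chromosomes, at r = 0.86 (exact permutation p = 0.0153, adjusted 0.107; rho = 0.83, exact permutation p = 0.0583, adjusted 0.408). It was 0.71 without WT replicates 1 and 2. TRIM54 with GNRH1 gave r = -0.65 (exact permutation p = 0.208, adjusted 0.547; rho = -0.26, exact permutation p = 0.658, adjusted 0.813), and 0.61 without the same libraries. With those libraries left out, ASPN with GNRH1 went from r = -0.33 to 0.76, and ASPN with PRG4 from -0.44 to -0.27.

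Over all 12 libraries, where the split between fractions sets most of the likeness, the 3 genes most like each of the 5 were named by Pearson r of log2 CPM. For ASPN they were ZNF90P1 (0.995), a Y RNA gene (ENSG00000200834.1, 0.992) and RPSAP36 (0.992). For PRG4 they were GPR137C, GNRH1 and ENSG00000260118 (0.992 each), so 1 of the 5 was among the nearest of another. GNRH1 was most like RPL36A (0.996), ENSG00000231731 (0.995) and MIR503HG (0.995). TRIM54 was most like GUCY1B2 (0.985), CALML6 (0.984) and MEGF6 (0.984), and SHOC1 most like ENSG00000286524, RN7SKP299 and ENSG00000249842 (0.998 each).

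The relatives and partners of each gene were counted in the same way. Of the small leucine-rich repeat proteoglycan list to which ASPN belongs, 4 of 15 other genes were tested. These were ECM2, OGN and OMD, all inside CENPP, and CHAD (chondroadherin), and each passed the filter on low counts through its nuclear libraries. Their calls, higher in the nucleus for 3 with K700E and for 4 with WT and lower for 0, therefore say nothing about the list. CHAD had 58 nuclear and 6 cytoplasmic counts. LUM (lumican), another member, had 5 nuclear and 38 cytoplasmic counts and was too low to test.

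Of 22 cartilage and joint genes, the tissue partners of PRG4, 17 were tested, with 7 higher and 3 lower in K700E nuclei than in K700E cytoplasm and 11 higher and 2 lower with WT. These counts, and those of the reproductive axis, stand beside 37.9% of all genes called higher and 28.1% lower with K700E, and 40.0% higher and 27.1% lower with WT. Among the cartilage genes called higher, SCX, COL11A1, CILP and, with WT only, CHAD had 3 to 14 cytoplasmic counts each. They passed the filter on low counts through the nucleus, so their calls follow from the filter and support nothing. COL2A1, the main collagen of cartilage, was called higher in the nucleus at 1.48 ± 0.31 with K700E (edgeR adjusted p = 0.000546) and had 28.6% of its counts in the cytoplasm. FOXC1, a transcription factor, was called lower at -1.34 ± 0.30 (edgeR adjusted p = 0.00103). Of 19 hormone and receptor genes of the reproductive axis, 7 were tested, with 4 higher and 0 lower with K700E and 3 higher and 0 lower with WT. Apart from CHD7, the genes called were TAC3, GNRHR and, with K700E only, GNRH2, with 6, 21 and 9 cytoplasmic counts. They too passed the filter through the nucleus, so their calls support nothing. CHD7, a chromatin remodeller of that list, was called higher at 1.00 ± 0.23 with K700E (edgeR adjusted p = 0.00123).

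Of 23 genes of striated muscle, partners of TRIM54, 14 were tested, with 7 higher and 2 lower with K700E (all genes: 37.9% higher, 28.1% lower) and 8 higher and 2 lower with WT (all genes: 40.0% higher, 27.1% lower). TTN, the giant sarcomere protein titin, was called higher in the nucleus at 3.64 ± 0.32 with K700E (edgeR adjusted p = 1.52e-07) and NBR1, an autophagy receptor, lower at -1.24 ± 0.20 (edgeR adjusted p = 5.76e-05). Of 32 meiotic crossover genes 30 were matched and 14 tested, with 10 higher and 2 lower in either construct, beside the same shares of all genes. SYCP2, of the synaptonemal complex, stood at 3.40 ± 0.32 with K700E (edgeR adjusted p = 2.34e-07) and the recombinase gene DMC1 at -1.14 ± 0.27 (edgeR adjusted p = 0.00153). Genes called higher also took in ANKRD23 and MYOM1 of muscle (11 and 32 cytoplasmic counts). Those of meiosis took in SYCP3, MEI1, TEX12 and RNF212B (10, 14, 17 and 24). These genes passed the filter on low counts through the nucleus, so their calls follow from the filter and support nothing. Medians with K700E and WT were 0.75 and 1.56 for cartilage, 1.00 and 1.24 for the reproductive axis, 1.03 and 1.84 for muscle and 2.58 and 2.05 for meiosis. Over all genes tested the medians were 0.29 with K700E and 0.40 with WT, and 0.71 and 0.92 by library size alone. The list medians cover tested genes only, some of which passed the filter through the nucleus, so no shift of the lists is read from them. In K700E against WT nuclei 0 genes of any of the 5 lists were called.

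With at least 50 nuclear counts and at most 5% of counts in the cytoplasm there were 3 of 4 proteoglycan genes, 1 of 14 meiotic genes (SYCP3), 1 of 14 muscle genes (ANKRD23), 2 of 18 cartilage genes (SCX and COL11A1) and 0 of 6 genes of the reproductive axis. The share of all genes at that minimum was not computed, so these counts say nothing about the lists. At the higher minimum of 500 nuclear counts, 87 of 10167 coding genes had at most 5% of counts in the cytoplasm. Among all 10167 coding genes with at least 500 nuclear counts, 34.4% overlapped another coding gene in span and 2.52% lay inside one. Of the 82 that had at most 5% of counts in the cytoplasm, leaving out the 5, 57.3% overlapped another coding gene and 7.32% lay inside one. How reads in shared bases were counted is not known, and the part of overlap in the low cytoplasmic shares was not tested. Among the 5 themselves ASPN, TRIM54 and PRG4 overlapped a coding gene, and SHOC1 and GNRH1 did not.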

How the data were processed

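The authors deposited raw counts per gene, 1 table per library, which are whole numbers that were not normalized. HISAT2 and DESeq are named, without versions, per the submitters' processing notes. For the counting program, its strand setting, the build and the annotation, nothing is given in the sources used here. Libraries were made with a NEBNext Ultra kit per the labels' protocols, which do not state poly(A) selection or strand.

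IDs were matched without version to GENCODE 29 (58440 of 67049 IDs, 99.7% of counts) and to symbols (60463). IDs absent from that release have no position here, so overlaps with them were not checked. Groups were construct and fraction, 3 libraries each. edgeR 4.0.16 in R 4.3.3 (TMM, filterByExpr with minimum count 10 and total 15, quasi-likelihood F test, 1 term per group over 12 libraries, Benjamini-Hochberg) tested 20394 genes at 0.05, with a biological coefficient of variation of 0.306. DESeq2 1.42.0 was an alternative. Logarithms of CPM, used for correlations and likeness, had a prior count of 2. Fitted log2 fold changes used the default prior count of edgeR. Correlations used all 720 pairings of 6 libraries, two-sided. Levels per kb used joined exons. Ratios against 0 counts used a floor of 3 counts over the group; intervals and floors cover counting error only. Promoters and their motifs came from RefSeq through Python 3.11.15.

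The 5 genes and the lists were chosen with earlier results of these data known. Named genes were the 5, genes overlapping or beside them by the rule given, genes inside the same host, the 3 most alike for each, and up to 4 of each list by mean CPM; LUM, SYCP3, ANKRD23, SCX, COL11A1, KCTD9, UGCG and the genes between the 5 in order of cytoplasmic share were added after their values were seen. The model was tested on simulated counts that gave every gene the same biological coefficient of variation of 0.306. TRIM54 and ASPN spread by 122% and 90.3% over the nuclear libraries, so that test does not cover genes as variable as these.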

Additional observations from a re-analysis of the deposited data

How the results depend on the processing

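None of the 5 genes was called in K700E against WT nuclei under any of 17 alternatives (adjusted p of 0.234 to 1). Genes called there numbered 0, but 1 by DESeq2, 36 with no filter, and 0 to 1 with each library left out (1 without WT nuclei replicate 2). In K700E against WT cytoplasm 1 gene was called, but 13 by DESeq2, 85 with no filter, 0 with a replicate block, 0 in a fit of the 6 libraries compared, and 0 to 2 with each library left out. The causes were not tested. Same-numbered libraries had correlations of 0.43, 0.06 and 0.20 in K700E against WT nuclei and of -0.17 to 0.34 in the other comparisons; since not every pair passed 0.1 in any of them, the replicate block is an alternative only; it called 0 genes in K700E against WT nuclei and changed no call of the 5. With values centred on each construct, 3 pairs came under 0.05: TRIM54 with UCN, TRIM54 with DNAJC5G and GNRH1 with DOCK5 (permutation, adjusted p = 0.0389 each). Those permutations were not kept within constructs, so the p-values are not exact and no relation is read from them.

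With each library left out, log2 fold changes in K700E against WT nuclei that turned sign ran from -0.58 to 0.73 (SHOC1), -1.79 to 0.54 (TRIM54), -0.24 to 0.13 (CENPP), -1.23 to 0.25 (OMD), -0.11 to 1.33 (ECM2), -0.12 to 0.26 (DNAJC25), -1.28 to 0.01 (UCN) and -0.31 to 1.07 (DNAJC5G). Nucleus over cytoplasm, the same was so of CENPP (-0.28 to 0.12) and MPV17 (-0.30 to 0.09) with K700E and of MPV17 with WT (-0.07 to 0.23). ODR4 with WT (0.58 to 0.98) lost its call without WT nuclei replicate 3 (edgeR adjusted p = 0.0667). By library size alone CENPP and MPV17 stood at 0.35 each with K700E, and at 0.63 and 0.64 with WT, where both were then called; DESeq2 gave 0.02 for each with K700E. The share of calls that were higher in the nucleus was 57.4% with K700E and 59.7% with WT, and 69.2% and 73.1% by library size alone. With no filter CENPP stood at -0.02 with WT and TPR at 0.58 (edgeR adjusted p = 0.0713). Centred on constructs, PRG4 with TPR had r = -0.26; without the 2 farthest libraries GNRH1 had r = -0.15 with DOCK5 and -0.90 with the lincRNA. An alternative chosen after seeing the data, leaving out WT nuclei replicate 2, gave a K700E over WT ratio of mean CPM of 1.45 for TRIM54 and 1 for UCN, against 0.412 and 0.539. With K700E cytoplasm replicate 1 left out, the log2 value of GNRH1, nucleus over cytoplasm, moved to 7.56; that of TRIM54 with WT ran from 6.88 without WT nuclei replicate 2 to 10.57 without WT cytoplasm replicate 2, which leaves 0 counts there. Depth limits the cytoplasmic values, which rest on 0 to 7 counts a library.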
